A study of Mus musculus with 15 samples.

Results

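Transcript counts from mouse cerebellum were examined for 8 genes that encode transcription factors of Purkinje cells, the neurons whose axons leave the cerebellar cortex: Rora, Lhx1, Lhx5, Foxp1, Foxp2, Foxp4, Skor2 and Ebf1. They were chosen by gene symbol, as 8 of the 24421 genes in the count files, and all 8 passed the filter on low counts, which kept 15843 genes. There were 3 genotypes, all on the FVB strain, and 5 libraries of each. Wild type animals were plain FVB, a second group carried Pcp2-ATXN1[82Q], and the remaining group carried Pcp2-ATXN1[82Q]V591A;S602D, called the substituted transgene here. ATXN1 is the protein whose expanded glutamine tract causes spinocerebellar ataxia type 1, and both transgenes carry 82 glutamines. The V591A and S602D changes are amino acid substitutions in ATXN1, and the series title names the complex of ATXN1 with CIC, a transcriptional repressor. The Pcp2 promoter directs both transgenes to Purkinje cells, so the other cells of the tissue are not known to carry the protein. The ages and sexes of the animals, and whether each line descends from 1 founder, are not in the labels used here. The labels also do not say that each library is a separate animal, so the p-values measure the spread between libraries, which may in part be technical.

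As background, RORα, the product of Rora, is an orphan nuclear receptor that binds a half-site of the AGGTCA kind, usually as a monomer, and activates genes of maturing Purkinje cells. Mice that lack it (staggerer mice) have few, immature Purkinje cells and are ataxic, and ATXN1 is known to be found in a complex with RORα and the acetyltransferase Tip60 (Kat5). Lhx1 and Lhx5 are LIM homeodomain factors that act with the adaptor Ldb1 in Purkinje cell differentiation, and Skor2 is a SKI-family corepressor that newborn Purkinje cells need in order to mature. Foxp1, Foxp2 and Foxp4 are forkhead repressors, and Ebf1 belongs to the EBF family of helix-loop-helix factors that take part in early neuronal differentiation. Several of these genes are also used outside Purkinje cells, Rora in molecular layer interneurons and Ebf1 in the mural cells of vessels, for example.

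The start regions of Rora, Lhx1 and Foxp4 are shown because these genes differed between genotypes and each has a single RefSeq window (GRCm38.p6). The 250 bases before the start are given 5′ to 3′ on the gene's strand, with each CG dinucleotide in capitals.
Rora, chr9:68653536-68653785, plus strand: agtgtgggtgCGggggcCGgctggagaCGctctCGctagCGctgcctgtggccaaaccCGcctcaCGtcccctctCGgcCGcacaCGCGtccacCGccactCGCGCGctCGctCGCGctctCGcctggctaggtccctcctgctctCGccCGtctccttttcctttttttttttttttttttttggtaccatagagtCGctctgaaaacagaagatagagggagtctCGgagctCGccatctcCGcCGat
Lhx1, chr11:84525535-84525784, minus strand: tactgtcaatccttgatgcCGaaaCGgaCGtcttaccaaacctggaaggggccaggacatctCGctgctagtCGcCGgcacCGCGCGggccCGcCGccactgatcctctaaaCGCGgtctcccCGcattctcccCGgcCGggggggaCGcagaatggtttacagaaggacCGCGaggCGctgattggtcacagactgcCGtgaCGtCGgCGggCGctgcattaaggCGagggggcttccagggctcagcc
Foxp4, chr17:47924633-47924882, minus strand: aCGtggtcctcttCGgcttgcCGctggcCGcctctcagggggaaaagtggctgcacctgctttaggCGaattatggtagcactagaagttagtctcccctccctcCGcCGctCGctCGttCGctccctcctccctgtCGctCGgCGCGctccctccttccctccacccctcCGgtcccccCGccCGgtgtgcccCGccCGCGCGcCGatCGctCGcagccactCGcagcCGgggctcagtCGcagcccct
All 3 stretches are rich in CG, with 26 dinucleotides in Rora, 26 in Lhx1 and 27 in Foxp4, and a G and C content of 61.2%, 64.8% and 69.6%, against a median of 52.4% over all 32851 windows of that length. The RefSeq table holds windows for 5 of the 8 genes, among them 3 alternative starts of Foxp1 and 2 of Ebf1. None of these windows holds the half-site AGGTCA on either strand (TGACCT on the other), a match found in 14% of all windows. None holds the CIC octamer in the forms TGAATGAA, TGAATGGA, TCAATGAA or TCAATGGA on either strand, which 3.19% of all windows hold. A match is a string of letters and not a binding site, and a missing match says only that the letters are not in this window.

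A pair of genes known to be lower in Purkinje cells without RORα are shown for comparison, since the first of them also supplies the promoter of both transgenes. Capitals mark the AGGTCA half-site or its reverse complement.
Pcp2, most upstream of 4 RefSeq starts, chr8:3625548-3625797, minus strand: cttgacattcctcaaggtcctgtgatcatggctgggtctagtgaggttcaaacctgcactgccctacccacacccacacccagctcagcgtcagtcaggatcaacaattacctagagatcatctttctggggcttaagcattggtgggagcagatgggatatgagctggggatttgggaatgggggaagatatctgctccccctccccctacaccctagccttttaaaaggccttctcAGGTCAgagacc
Pcp4, chr16:96467356-96467605, plus strand: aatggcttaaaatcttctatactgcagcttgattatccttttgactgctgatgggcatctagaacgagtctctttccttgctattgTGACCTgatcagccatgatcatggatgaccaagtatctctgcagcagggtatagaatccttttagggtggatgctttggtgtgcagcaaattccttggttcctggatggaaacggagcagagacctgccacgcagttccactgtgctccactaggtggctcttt
In Pcp2 the first base of the match stands 12 bases before that start, and in Pcp4 it stands 164 bases before the start, on the opposite strand. The same Pcp2 match falls 87 bases before the next start of the gene. Another start of Pcp2 has a match 26 bases before it, and the remaining start has none. Slc1a6, also of the genes lower without RORα, has 1 window, with no match and a G and C content of 78.8%, so the pair shown does not stand for that list. Over all genes of the table, 15.8% hold a match in at least 1 window.

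The libraries held 36467948 to 42818401 reads counted on genes, and the 8 genes were counted well above the filter, from 266 to 504 reads per library for Skor2 to 11623 to 17485 for Rora. Values below are normalised read counts (CPM) after scaling of library sizes by the trimmed mean of M-values. Tests are edgeR quasi-likelihood F-tests with all 15 libraries in one fit, with p-values adjusted by the Benjamini-Hochberg method over all genes tested. A gene rose or fell where the adjusted p was under 0.05. Defining markers of the tissue were present: each of the 12 Purkinje cell effector genes (such as Calb1, Pcp2 and Itpr1) and 7 granule cell markers was detected in every genotype. Amounts of neighbouring tissue varied. Summed choroid plexus markers ranged from 24.3 to 4043 CPM in wild type, 38.8 to 5179 CPM in ATXN1[82Q] and 43.4 to 3796 CPM in the third group. Summed brainstem neuron markers, of which 3 of 11 passed the filter and 1 rose in ATXN1[82Q], ranged from 11.2 to 12.9 CPM in wild type and 13.4 to 17.3 CPM with the substituted transgene. In ATXN1[82Q] they ranged from 10.3 to 27.7 CPM, highest in replicates 2 and 5. Most of each sum was Slc6a5, a gene also counted below as an interneuron marker. Without it the sums were 0.831 to 0.980 CPM in wild type and 0.961 to 2.64 CPM with the substituted transgene. In ATXN1[82Q] they were then 3.30 and 7.78 CPM in replicates 2 and 5, and 0.932 to 1.23 CPM in the others. The motor neuron gene Slc18a3 of the brainstem list had no read in any wild type library. Results that rest on these libraries are also given by the level of the choroid plexus gene Ttr.

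The 8 genes lie apart in the genome (GRCm38 positions from GENCODE M21). Rora lies on chromosome 9 from 68653786 to 69388246 on the plus strand, Lhx1 on chromosome 11 from 84518284 to 84525535 on the minus strand, and Lhx5 on chromosome 5 from 120431699 to 120441223 on the plus strand. Foxp1 lies on chromosome 6 from 98925338 to 99522721 on the minus strand, Foxp2 on the same chromosome from 14901349 to 15441977 on the plus strand, and Foxp4 on chromosome 17 from 47867133 to 47924645 on the minus strand. Skor2 lies on chromosome 18 from 76856405 to 76900342 on the plus strand and Ebf1 on chromosome 11 from 44617317 to 45008091 on the plus strand. Reads are counted over exons, and little of these exons overlaps another annotated gene: 0.627% of the exon length of Rora, 2.57% of Lhx5, 3.16% of Foxp1 and none of the other five. The overlapping genes have no line of their own in the count files.

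Per kilobase of exon, Rora was the most abundant of the 8 in wild type cerebellum, with a level of 33.5 ± 1.65 CPM per kb (SD, n = 5). Foxp4 followed at 15.3 ± 0.412 CPM per kb, Lhx1 at 12.8 ± 0.748 and Lhx5 at 8.38 ± 0.816. Lower levels were found for Ebf1 at 6.59 ± 0.323 CPM per kb, Skor2 at 3.67 ± 0.383, Foxp1 at 1.70 ± 0.136 and Foxp2 at 0.717 ± 0.0405. In wild type no neighbours in this order overlapped. In ATXN1[82Q] Ebf1 stood before Lhx5, at 5.22 against 4.41 CPM per kb, but the libraries of these neighbours overlapped. With the substituted transgene the order was that of wild type, with overlap between Foxp4 and Lhx1 and between Lhx5 and Ebf1. Exon length here is the union of all annotated exons of a gene, and the order depends on it. In CPM not divided by length, wild type Foxp1 (21.6 to 26.2) stood above Skor2 (9.54 to 12.7).

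**Figure D1:**
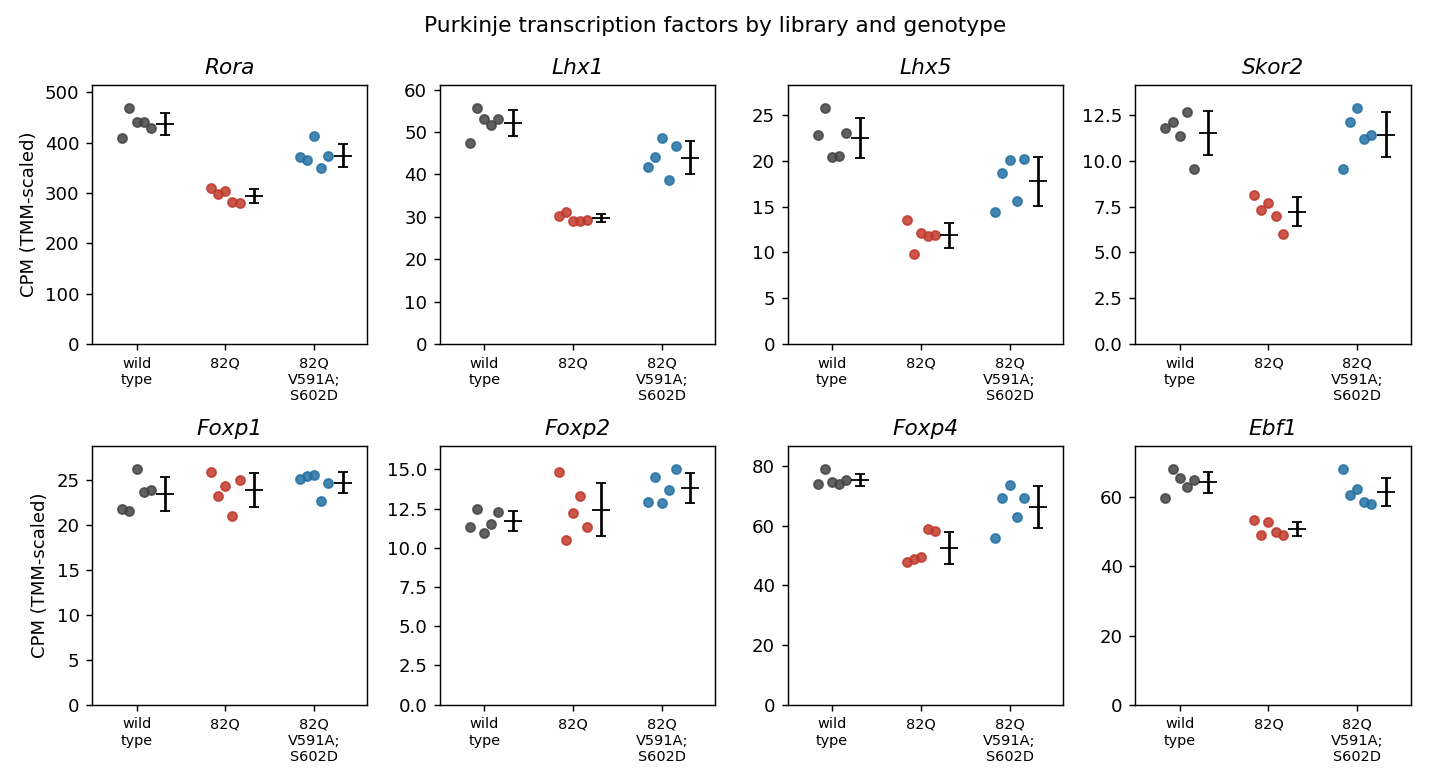
Level of each gene in CPM (vertical axis, from 0) in each of the 15 libraries, by genotype (horizontal axis). Points are libraries and bars the mean with SD. In 6 panels the ATXN1[82Q] points lie below all wild type points, from Rora (294 against 437 CPM on average) to Ebf1 (50.9 against 64.3), while those of Foxp1 and Foxp2 overlap with wild type.

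The first comparison sets whole cerebella with the ATXN1[82Q] transgene against wild type. No line with an unexpanded transgene is among the genotypes, so the glutamine tract and the transgene as such cannot be told apart. In ATXN1[82Q] cerebella 6 of the 8 fell against wild type: Rora, Lhx1, Lhx5, Foxp4, Skor2 and Ebf1. None rose, and Foxp1 and Foxp2 did not pass the test. Of all genes tested, 14.9% were called lower and 16.6% higher in this comparison, 31.5% in all. The median log2 fold change was -0.54 over the 8 genes and 0.01 over all genes. The same 6 had no overlap between the genotypes, against 19.2% of all genes. In whole tissue, fewer Purkinje cells and less RNA per Purkinje cell cannot be told apart.

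Rora, the receptor gene, stood at 408, 468, 441, 441 and 429 CPM in wild type replicates 1 to 5 and at 309, 297, 304, 281 and 280 CPM in those of ATXN1[82Q]. Every ATXN1[82Q] library was below every wild type library. The level fell 1.49-fold, by 0.57 on the log2 scale (SE 0.0474, adjusted p = 1.13e-07). Interneurons of the molecular layer also use Rora. A list of 8 interneuron markers, not limited to that layer and sharing Slc6a5 with the brainstem list, was mixed. Of these markers 4 rose and 1 fell, and their summed level was 1344 to 1545 CPM in wild type and 1232 to 1368 in ATXN1[82Q]. The part of molecular layer interneurons in the result was not tested.

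Both LIM homeodomain genes fell. Lhx1 stood at 47.3, 55.6, 53.1, 51.7 and 53.1 CPM in wild type and at 30.3, 31.2, 29.0, 29.0 and 29.3 CPM in ATXN1[82Q]. The ATXN1[82Q] libraries were closely grouped, with an SD of 0.981 around 29.8 CPM, and lay far below the lowest wild type library. The fall was 1.75-fold (log2 -0.81, SE 0.0575, adjusted p = 1.93e-08). Lhx5 stood at 22.9, 25.7, 20.4, 20.5 and 23.1 CPM in wild type and at 13.6, 9.86, 12.1, 11.8 and 11.9 CPM in ATXN1[82Q]. Its groups did not overlap, and the fall was 1.90-fold (log2 -0.93, SE 0.101, adjusted p = 2.91e-06).

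Skor2, the corepressor gene, stood at 11.8, 12.1, 11.4, 12.7 and 9.54 CPM in wild type and at 8.13, 7.34, 7.72, 7.01 and 6.0 CPM in ATXN1[82Q]. The highest ATXN1[82Q] library remained under the lowest wild type one, replicate 5. It fell 1.59-fold (log2 -0.67, SE 0.0966, adjusted p = 5.4e-05).

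The forkhead genes did not act as a group. Foxp4, which mouse Purkinje cells need to keep their dendrites, stood at 74.1, 79.0, 74.8, 74.1 and 75.5 CPM in wild type and at 47.9, 49.0, 49.5, 58.9 and 58.2 CPM in ATXN1[82Q]. It fell 1.43-fold (log2 -0.52, SE 0.0703, adjusted p = 2.89e-05), and no library of one group reached the other. Foxp1 stood at 21.8, 21.6, 26.2, 23.7 and 23.8 CPM in wild type and at 25.9, 23.2, 24.3, 21.03 and 25.0 CPM in ATXN1[82Q]. Those ranges overlap almost fully. Its log2 difference of 0.03 had a 95% interval of -0.10 to 0.16 (adjusted p = 0.758). Foxp2, best known for its role in human speech and strongly used in Purkinje cells, stood at 11.3, 12.5, 10.9, 11.5 and 12.3 CPM in wild type and at 14.8, 10.5, 12.2, 13.3 and 11.3 CPM in ATXN1[82Q]. Here too the groups overlapped, and the log2 difference was 0.08 with a 95% interval of -0.09 to 0.26 (adjusted p = 0.463). These intervals lie above the fall of Foxp4, whose own interval was -0.67 to -0.37, though the genes were not tested against each other.

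Ebf1 stood at 59.7, 68.1, 65.7, 63.0 and 65.0 CPM in wild type and at 53.4, 49.2, 52.9, 50.02 and 49.2 CPM in ATXN1[82Q]. The groups did not overlap, and the gene fell 1.26-fold (log2 -0.34, SE 0.047, adjusted p = 3.98e-05). Ebf1 is also a gene of mural cells. Of 10 endothelial and mural markers 3 rose and none fell, with a summed level of 217 to 243 CPM in wild type and 265 to 297 CPM in ATXN1[82Q]. With each genotype's mean removed, the correlation of Ebf1 with the mean of these markers was 0.42 over the 15 libraries. This value was not particular to Ebf1. For the other factors it ran from -0.44 for Foxp4 to 0.63 for Foxp2, with 0.42 for Lhx5. Ebf1 had a correlation of -0.56 with the mean of the choroid plexus markers. For the other factors that correlation ran from -0.51 for Rora to 0.44 for Foxp4. The part of endothelial and mural cells in the result was not tested.

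**Figure D2:**
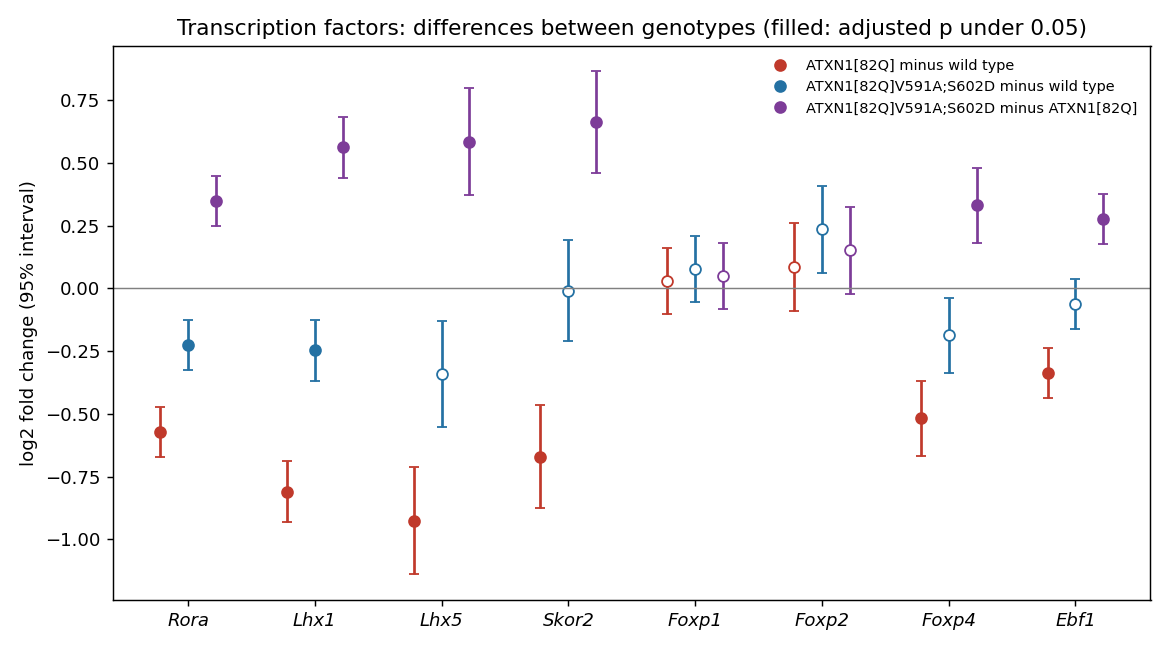
Log2 fold change of each gene (vertical axis, with 95% interval) in the 3 comparisons, with filled points where the adjusted p was under 0.05. The ATXN1[82Q] differences from wild type run from -0.93 for Lhx5 to 0.08 for Foxp2, and those of the substituted transgene from -0.34 for Lhx5 to 0.24 for Foxp2.

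The falls were also computed apart in libraries with little and with much choroid plexus RNA. Among the 5 libraries of these genotypes with Ttr under 100 CPM (3 wild type, 2 ATXN1[82Q]), the log2 differences were -0.56 for Rora, -0.85 for Lhx1, -0.79 for Lhx5, -0.64 for Foxp4, -0.61 for Skor2 and -0.31 for Ebf1. Among the 5 with Ttr over 100 CPM (2 wild type, 3 ATXN1[82Q]) they were -0.56, -0.76, -1.04, -0.44, -0.67 and -0.34 in the same order. All 6 passed the test in both sets, with adjusted p-values up to 0.0121. The differences between the sets were not tested. They also passed without the 2 ATXN1[82Q] libraries of high brainstem markers.

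The second comparison asks how far the substituted transgene, with the same glutamine tract, moves these genes from wild type. Of the 8 genes, 2 fell, Rora and Lhx1, and none rose, where 1.2% of all genes tested were called lower, 0.208% higher and 1.41% in all. The median log2 fold change was -0.12 over the 8 and 0.01 over all genes. Groups without overlap were found for Lhx5, Foxp2 and Foxp4, none of which passed the test, against 3.16% of all genes.

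Rora stood at 372, 365, 412, 349 and 373 CPM in replicates 1 to 5 with the substituted transgene. The third of these lies above the lowest wild type library (408 CPM), and the other four lie below all of wild type. The fall was 1.17-fold (log2 -0.23, 95% interval -0.33 to -0.13, adjusted p = 0.0194). Lhx1 stood at 41.7, 44.0, 48.6, 38.8 and 46.6 CPM, also with replicate 3 inside the wild type range. It fell 1.19-fold (log2 -0.25, 95% interval -0.37 to -0.13, adjusted p = 0.0366). Both calls stand near the threshold. That of Rora was lost when replicate 1, 2 or 4 of the transgenic group, or wild type replicate 2 or 4, was left out, with adjusted p-values of 0.0520 to 0.0682. That of Lhx1 was lost without the same 3 libraries of the substituted transgene or without wild type replicate 2, 3, 4 or 5 (adjusted p of 0.0724 to 0.116), in the fit of only the 2 genotypes compared (adjusted p = 0.0882) and with the brainstem marker mean as a covariate (adjusted p = 0.0678). In libraries with Ttr under 100 CPM (3 wild type, 2 with the substituted transgene) the log2 difference was -0.28 for Rora (adjusted p = 0.0352) and -0.29 for Lhx1 (adjusted p = 0.129). With Ttr over 100 CPM (2 wild type, 3 with the substituted transgene) it was -0.16 (adjusted p = 0.552) and -0.20 (adjusted p = 0.565).

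Lhx5 stood at 14.4, 18.7, 20.0, 15.6 and 20.2 CPM with the substituted transgene, all under the lowest wild type library of 20.4 CPM. Its log2 difference of -0.34 (95% interval -0.55 to -0.13) did not pass the test of all genes (adjusted p = 0.126), though DESeq2 gave an adjusted p of 0.0300, the lowest of its 25 alternatives, which reached 0.513. Foxp4 stood at 56.0, 69.4, 73.8, 62.9 and 69.4 CPM, again under every wild type library. Its log2 difference was -0.19 (95% interval -0.34 to -0.04, adjusted p = 0.276). Foxp2 was on the other side, at 12.9, 14.5, 12.9, 13.7 and 15.01 CPM, with each library above the highest wild type one. Its log2 difference of 0.24 (95% interval 0.06 to 0.41) did not pass either (adjusted p = 0.233).

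For the other three, the groups overlapped. Skor2 stood at 9.55, 12.1, 12.9, 11.2 and 11.4 CPM with the substituted transgene, and the log2 difference from wild type was -0.01 with a 95% interval of -0.21 to 0.19 (adjusted p = 0.985). Ebf1 stood at 68.1, 60.6, 62.5, 58.8 and 58.1 CPM, with a log2 difference of -0.06 (95% interval -0.16 to 0.04, adjusted p = 0.660). Foxp1 stood at 25.2, 25.4, 25.5, 22.7 and 24.7 CPM, with a log2 difference of 0.08 (95% interval -0.06 to 0.21, adjusted p = 0.678). The interval of Skor2 does not reach its fall in ATXN1[82Q], and differences smaller than these intervals could not be seen with 5 libraries a group.

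The 2 transgenes were also compared directly. They are separate lines, so the substitutions, the line and the level of the transgene cannot be told apart. The 6 genes that fell in ATXN1[82Q] were each higher with the substituted transgene, and none of the 8 was lower, where 14.6% of all genes tested were called higher, 13.5% lower and 28.1% in all. This comparison shares the ATXN1[82Q] libraries with the first. The median log2 fold change was 0.34 over the 8 genes and -0.01 over all genes. Skor2 was 1.58-fold higher (log2 0.66, SE 0.0965, adjusted p = 0.000128), Lhx5 1.499-fold (0.58, SE 0.102, adjusted p = 0.00054) and Lhx1 1.48-fold (0.56, SE 0.0575, adjusted p = 4.9e-06). Rora was 1.27-fold higher (log2 0.35, SE 0.0473, adjusted p = 7.25e-05), Foxp4 1.26-fold (0.33, SE 0.0704, adjusted p = 0.00248) and Ebf1 1.21-fold (0.27, SE 0.047, adjusted p = 0.000465). In 5 of these 6 the groups did not overlap, against 17.9% of all genes. In Foxp4 replicate 1 of the substituted transgene (56.0 CPM) lay within the ATXN1[82Q] range. The intervals of Foxp1 (-0.08 to 0.18, adjusted p = 0.602) and Foxp2 (-0.02 to 0.32, adjusted p = 0.177) both held 0.

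Within the libraries with Ttr under 100 CPM, which number 2 for each transgene, the log2 differences between the transgenes were 0.27 for Rora, 0.57 for Lhx1 and 0.36 for Foxp4, which passed the test. Those of 0.42 for Lhx5, 0.40 for Skor2 and 0.24 for Ebf1 did not (adjusted p = 0.138, 0.0559 and 0.0738). With Ttr over 100 CPM, in 3 libraries of each, all 6 passed, with log2 differences of 0.40, 0.57, 0.32, 0.70, 0.84 and 0.30 in that order.

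The transcription factors were then set against the genes by which mature Purkinje cells are known. Of 12 such effector genes, among them the calcium buffer Calb1 and the calcium release channel Itpr1, 12 fell in ATXN1[82Q], with a median log2 fold change of -1.17. With the substituted transgene 7 of the 12 fell against wild type, with a median of -0.38. None of these 7 passed in libraries with Ttr over 100 CPM (adjusted p of 0.334 to 0.441), where no gene of the whole table did. Their summed level ranged from 8600 to 9830 CPM in wild type, 3157 to 3849 CPM in ATXN1[82Q] and 6122 to 8361 CPM in the third genotype. For each library, the log2 CPM of a factor was expressed relative to the mean log2 CPM of these 12 genes, as a description with no test.

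On that relative log2 scale all 8 factors were higher in ATXN1[82Q] than in wild type. The difference was 0.31 for Lhx5, 0.43 for Lhx1, 0.57 for Skor2, 0.67 for Rora, 0.71 for Foxp4, 0.90 for Ebf1, 1.27 for Foxp1 and 1.31 for Foxp2. In 7 of the 8 the groups did not overlap, and Lhx5 was the exception. Rora, for instance, lay 0.14 to 0.25 above the effector mean in wild type, 0.77 to 0.93 above it in ATXN1[82Q] and 0.25 to 0.51 above it in the third genotype. The share of all genes without overlap on this scale was not computed. Relative to wild type, the effector mean itself stood at -1.35 to -1.12 in ATXN1[82Q] libraries. A gene with no change in CPM would therefore also be higher on this scale. With the substituted transgene the differences from wild type ran from 0.04 for Lhx5 to 0.62 for Foxp2, and those of Lhx1 and Lhx5 overlapped with wild type. How much of the RNA of each factor comes from cells other than Purkinje cells was not measured here.

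**Figure D3:**
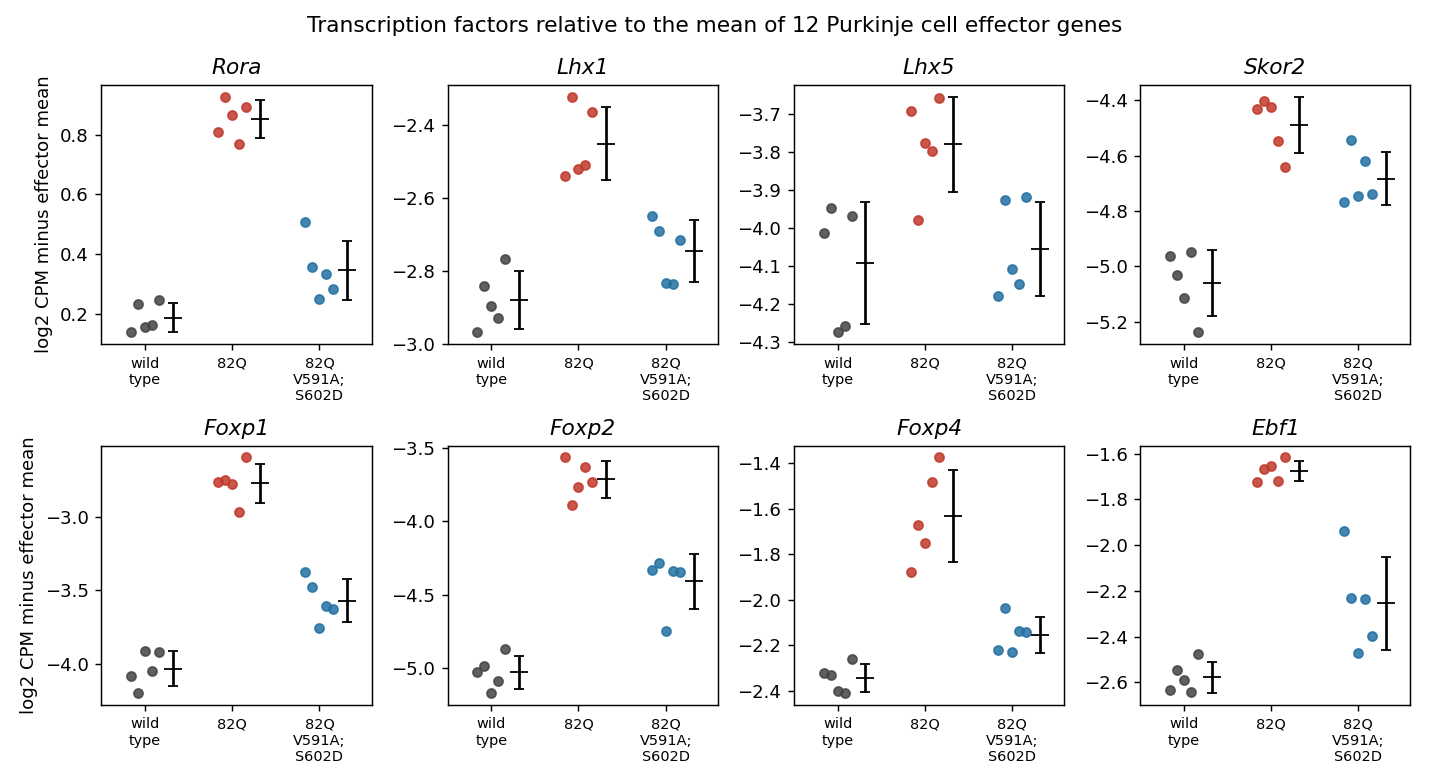
Log2 CPM of each gene minus the mean log2 CPM of 12 Purkinje cell effector genes (vertical axis) in each library, by genotype. Points are libraries and bars the mean with SD, and the axes of the panels differ. ATXN1[82Q] libraries lie above wild type in every panel but that of Lhx5, where the ranges meet. Since the effector mean fell in ATXN1[82Q], a gene with no change in CPM would also lie higher there.

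Genes known from mouse Rora mutants to need RORα in Purkinje cells fell as well. In ATXN1[82Q] 6 of 6 were lower, with a median log2 fold change of -0.99: Itpr1 (-1.46), Calb1 (-1.21), Pcp4 (-1.12), Pcp2 (-0.87), the glutamate transporter gene Slc1a6 (-0.86) and Shh (-0.34), which encodes the mitogen that Purkinje cells release for granule cell precursors. This list shares 5 genes with the effector genes above. With the substituted transgene 2 of the 6 fell against wild type, Pcp4 by 0.50 and Calb1 by 0.40 on the log2 scale, and all 6 were higher than in ATXN1[82Q]. Neither fall passed in libraries with Ttr over 100 CPM (adjusted p = 0.334 and 0.429). Shh was low, at 4.05 to 4.77 CPM in wild type, 3.24 to 3.74 in ATXN1[82Q] and 4.61 to 4.99 in the third genotype. Exons of other genes cover 51.5% of the Pcp2 exon length (Pet100), 23.7% of that of Pcp4 (Igsf5) and 28.4% of that of Shh, so the counts of these 3 may be incomplete or shared. Of the 25 alternatives, the Shh call against wild type was lost in that of libraries with Ttr over 100 CPM (adjusted p = 0.193).

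Of the 3 other receptor genes reported here, whose products bind like elements, 1 rose in ATXN1[82Q] and 2 did not pass. Rorb, which encodes a receptor of the same subfamily, stood at 14.2, 14.5, 13.4, 13.8 and 14.7 CPM in wild type and at 19.1, 20.7, 16.8, 15.7 and 16.4 CPM in ATXN1[82Q]. It rose 1.26-fold, without overlap (log2 0.33, SE 0.0756, adjusted p = 0.00316). Of the 2 ATXN1[82Q] libraries with high brainstem markers, replicate 2 was the highest for Rorb at 20.7 CPM and replicate 5 stood at 16.4 CPM. The Rorb call held in 24 of 25 alternatives, also without these 2 libraries, and was lost in libraries with Ttr over 100 CPM (adjusted p = 0.18). The circadian repressors Nr1d1 and Nr1d2, which bind related elements, had log2 differences of 0.05 and -0.05 and passed in no comparison. Against wild type, the substituted transgene gave a log2 difference of -0.06 for Rorb (adjusted p = 0.824).

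In ATXN1[82Q] against wild type, 14.9% of all genes tested were called lower and 16.6% higher. These shares also stand beside the counts of the family and cell type lists that follow. Among 9 coregulators of RORα, 2 fell in ATXN1[82Q] and none rose: Ncoa1, a coactivator (log2 -0.13, adjusted p = 0.0101), and Ncor1, a corepressor (log2 -0.23, adjusted p = 0.00238). Both calls were lost in libraries with Ttr over 100 CPM (log2 -0.04 and -0.12, adjusted p = 0.610 and 0.270). None of the 9 passed with the substituted transgene against wild type. Kat5, the Tip60 gene, had a log2 difference of 0.05 in ATXN1[82Q] (95% interval -0.01 to 0.11). The counts are listed by mouse gene, and the row of mouse Atxn1 had a log2 difference of 0.13 in ATXN1[82Q] and of 0.26 under the substituted transgene (adjusted p = 0.193 and 0.112). Whether reads of the human transgene are counted in that row is not known.

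Of 16 LIM homeodomain factors and cofactors 14 were tested, and Lhx4 and Isl1 were too low. In ATXN1[82Q] 5 fell (Lhx1, Lhx5, Lmo2, Ssbp2 and Ssbp3) and 3 rose (Lmx1a, Ldb2 and Lmo4). Lmo4, a LIM-only protein that binds Ldb1, rose from 30.6 ± 1.58 to 40.2 ± 1.496 CPM (SD, n = 5), with no overlap (log2 0.39, SE 0.0459, adjusted p = 5.98e-06). It was at 30.9 ± 1.48 CPM with the substituted transgene. Ldb1, the shared adaptor, had a log2 difference of 0.05 in ATXN1[82Q] (95% interval -0.02 to 0.12, adjusted p = 0.294). The falls of Ssbp2 and Ssbp3, which stabilise LDB complexes, were 0.12 and 0.11 on the log2 scale. Lmx1a, a gene of unipolar brush cells and their progenitors, varied widely (1.53 ± 1.099 CPM in wild type, 3.97 ± 2.41 in ATXN1[82Q], adjusted p = 0.0416), and its call was lost without ATXN1[82Q] replicate 2, 4 or 5, any of wild type replicates 1 to 4, or replicate 2 or 3 of the substituted transgene (adjusted p up to 0.363 over all alternatives). It was lost as well with the brainstem covariate (log2 0.92, adjusted p = 0.187) and without the 2 ATXN1[82Q] libraries of high brainstem markers (log2 0.70, adjusted p = 0.363). In each genotype Lmx1a was higher in the libraries with Ttr over 100 CPM. It stood there at 1.96 and 3.27 CPM in wild type, against 0.725 to 0.894 in the others, and at 4.64 to 6.34 CPM in ATXN1[82Q], against 1.27 and 1.58. The part of neighbouring tissue in this rise was not tested. The call of Ssbp2 was lost without ATXN1[82Q] replicate 4 or 5 or wild type replicate 3 or 4 (up to 0.244 over all alternatives). In the libraries with Ttr over 100 CPM the calls of Lmo2 (adjusted p = 0.110), Ldb2 (0.0687) and Ssbp3 (0.132) were lost. That of Lmo2 was also lost with Ttr under 100 CPM (0.104) and without the 2 ATXN1[82Q] libraries of high brainstem markers (0.0611). Against wild type, only Lhx1 of these 14 passed with the substituted transgene.

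In the FOXP list of 7, Foxp4, Gatad2b (log2 -0.30) and Ctbp1 (log2 -0.09) fell in ATXN1[82Q] and none rose. Gatad2b and Ctbp1 encode corepressors that FOXP proteins can bind. The Gatad2b call was lost in libraries with Ttr over 100 CPM (log2 -0.12, adjusted p = 0.512), and the Ctbp1 call was lost without ATXN1[82Q] replicate 1, 2, 3 or 5 or wild type replicate 1, 3 or 5 (adjusted p up to 0.176 over all alternatives). In the SKOR and SMAD list of 7, Skor2 was the only one to fall and none rose. Its paralog Skor1 had a log2 difference of 0.12 (95% interval -0.03 to 0.27, adjusted p = 0.223). None of either list passed with the substituted transgene against wild type.

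The EBF family was divided. Ebf2, which in mice a subset of Purkinje cells needs, stood at 12.7, 13.4, 18.2, 17.5 and 14.0 CPM in wild type and at 7.54, 6.85, 5.43, 6.75 and 7.72 CPM in ATXN1[82Q]. It fell 2.21-fold, with no overlap (log2 -1.14, SE 0.12, adjusted p = 1.74e-06), against 1.26-fold for Ebf1. Ebf3 (log2 0.19) and Ebf4 (log2 0.40) rose, and the Ebf4 call was lost with Ttr under 100 CPM (adjusted p = 0.173). The call of Ebf3 was lost without ATXN1[82Q] replicate 1, 3, 4 or 5 or wild type replicate 1, 2, 3 or 5 (adjusted p up to 0.259 over all alternatives). Zfp521, which encodes a zinc finger protein that binds EBF factors, fell by 0.15. That call was lost with Ttr under 100 CPM (log2 -0.098, adjusted p = 0.214) and without the 2 ATXN1[82Q] libraries of high brainstem markers (adjusted p = 0.0586). With the substituted transgene Ebf2 stood at 10.5, 10.7, 14.1, 10.3 and 11.2 CPM, overlapping with wild type (log2 -0.42, adjusted p = 0.108). It passed there by DESeq2 and without replicate 3 of that group. None of the 6 passed against wild type in the main test.

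**Figure D4:**
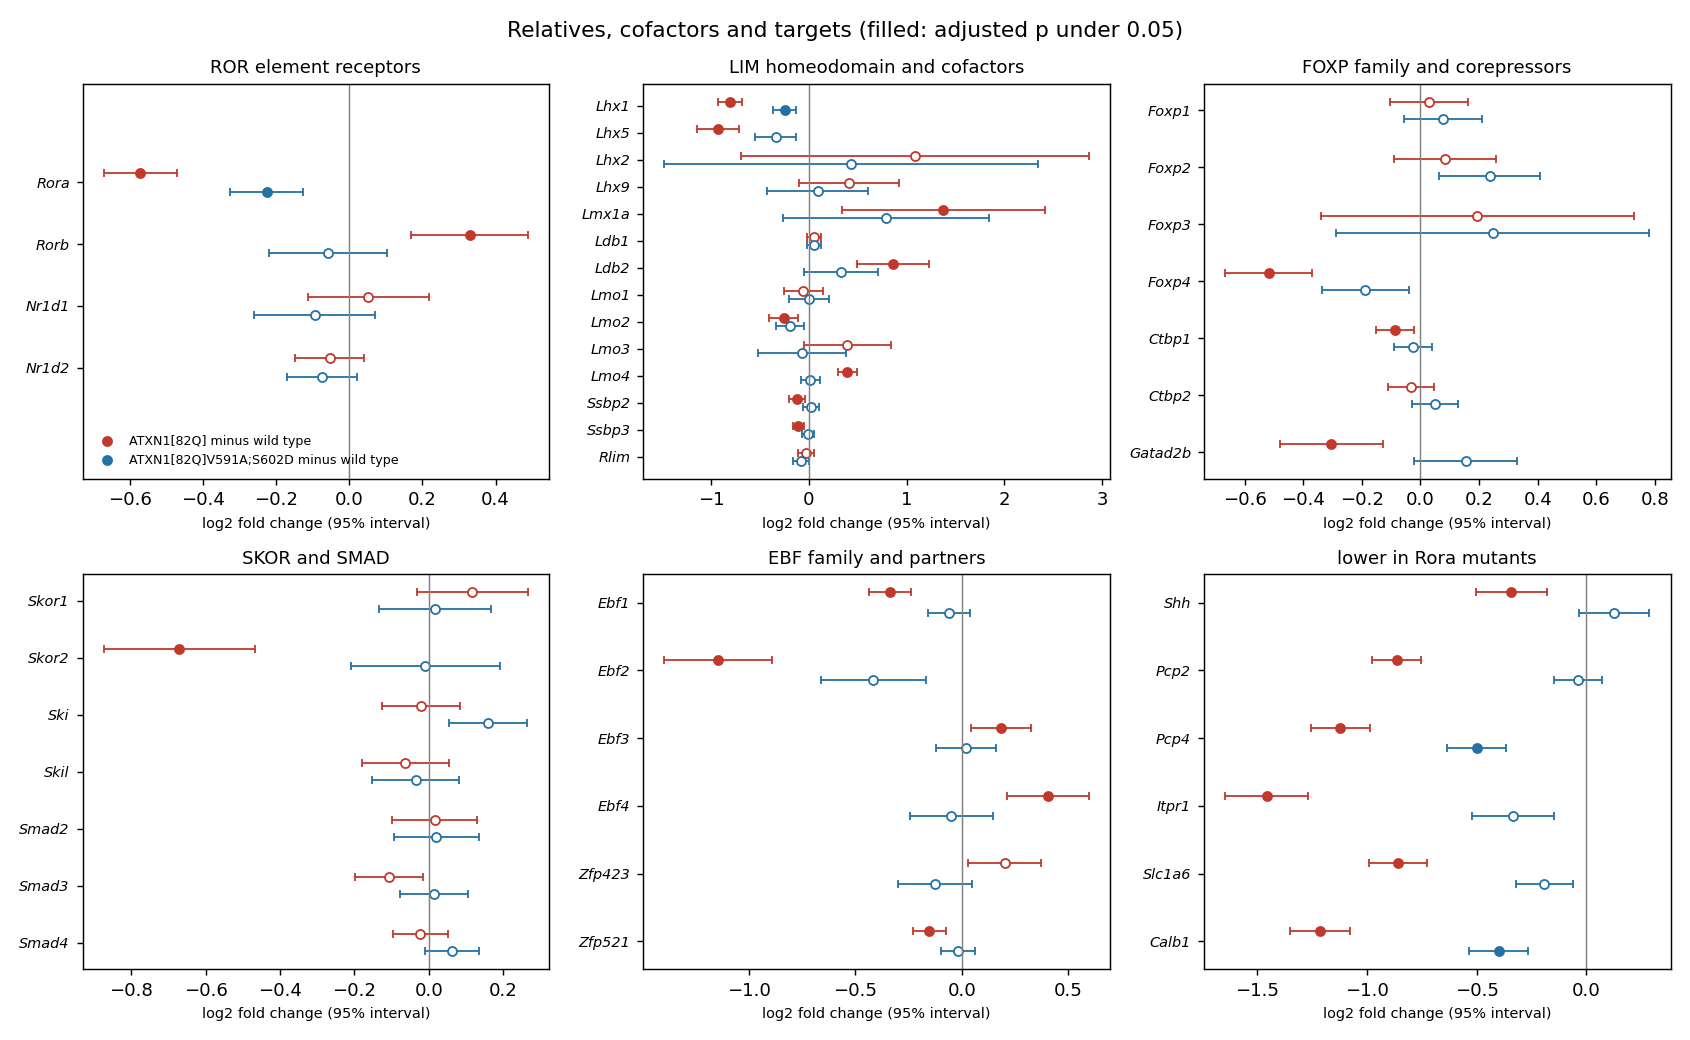
Log2 fold change against wild type (horizontal axis, with 95% interval) of the tested genes of 6 lists, for ATXN1[82Q] in red and the substituted transgene in blue, filled where the adjusted p was under 0.05. Rora lies to the left and Rorb to the right in ATXN1[82Q], Ebf1 and Ebf2 lie to the left and Ebf3 and Ebf4 to the right, and all 6 genes known to be lower in Rora mutants lie to the left.

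Regulators of other cerebellar neurons were counted beside those of Purkinje cells. Of 9 granule cell factors, 3 fell in ATXN1[82Q] and 1 rose. Etv1, an ETS factor of maturing granule cells, fell 1.57-fold from 483 ± 55.2 to 308 ± 31.6 CPM (SD, n = 5, log2 -0.65, adjusted p = 9.72e-06), and Zic2 fell by 0.17 on the log2 scale. The Etv1 call held in all 25 alternatives and that of Zic2 in 19, being lost without ATXN1[82Q] replicate 5 or wild type replicate 3 among others (adjusted p up to 0.301). Of 4 tested factors of inhibitory interneurons 2 rose, Pax2 and Tfap2a (both log2 0.28), and none fell. With Ttr under 100 CPM both calls were lost (log2 0.13 and 0.29, adjusted p = 0.337 and 0.0578), and that of Tfap2a was lost with Ttr over 100 CPM too (0.0696). Of 5 factors of excitatory nuclear and unipolar brush neurons Lmx1a and Meis2 (log2 1.28) rose. Meis2 varied widely, with 4.04 ± 1.2 CPM in wild type and 9.83 ± 5.63 CPM in ATXN1[82Q]. Its call was lost without the 2 ATXN1[82Q] libraries of high brainstem markers (log2 0.53, adjusted p = 0.137) and with Ttr under 100 CPM (log2 0.62, adjusted p = 0.137). None of these 3 lists had a gene that passed with the substituted transgene against wild type.

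Markers of other cells moved in ATXN1[82Q] as well. All 11 microglia markers rose, with summed levels of 152 to 177 CPM in wild type, 276 to 309 CPM in ATXN1[82Q] and 163 to 192 CPM in the third genotype. Of 7 oligodendrocyte markers 6 rose (4559 to 6786, 6692 to 8531 and 5495 to 6102 CPM). Of 7 granule cell markers 4 fell (4435 to 5253, 3532 to 3820 and 4351 to 4962 CPM). Of 8 astrocyte and Bergmann glia markers 3 rose and 2 fell. Against wild type, 2 of 8 interneuron markers fell with the substituted transgene, and no marker of microglia, oligodendrocytes, granule cells, astrocytes or vessels passed. The part of these cells in the falls of the 8 factors was not tested.

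The genes whose log2 CPM ran closest to each factor over the 15 libraries were sought among 10323 protein-coding genes of adequate level, as a description, since the differences between genotypes shape these correlations. Nearest to Rora were Shisa6 (r = 0.988), Tmem70 (r = 0.987), Polr3k (r = 0.985), Stk17b (r = 0.985) and Pde5a (r = 0.984). Shisa6 was also among the 3 nearest to Lhx1 (r = 0.988), with Cep126 (r = 0.989) and Clmn (r = 0.988). Lhx5 ran with Pde9a (r = 0.972), Trabd2b (r = 0.967) and Itpka (r = 0.965), Skor2 with Ece1 (r = 0.968), Hes3 (r = 0.967) and Kcnk10 (r = 0.967), and Foxp4 with Sept5 (r = 0.986), Agfg2 (r = 0.98) and Lrrn2 (r = 0.973). Ebf1 ran with D5Ertd579e (r = 0.968) and Galnt13 (r = 0.954). For Foxp1 and Foxp2, which passed in no comparison, the closest genes were less close: Gosr1 (r = 0.790), Sass6 (r = 0.779) and Atp8a2 (r = 0.776) for Foxp1, and Osbp (r = 0.793), Rras2 (r = 0.754) and Homez (r = 0.747) for Foxp2. With each genotype's mean removed, the correlation of Rora was 0.85 with Shisa6 and 0.78 with Lhx1 over the same libraries.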

How the data were processed

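Whole cerebellar RNA of 15 libraries, 5 per genotype, was sequenced. Per the labels' protocols, double-stranded cDNA was amplified from 10 ng of total RNA, by poly(A) and random priming. Per the submitters' processing notes, reads were aligned with STAR 2.5.3a to mm10 and HTSeq and DESeq2 were used. The deposited values are whole-number gene counts, not normalised. How strand and multiple overlaps were counted, and which annotation was used, is not given in the sources used here. Counts of overlapping genes may therefore be shared or lost. Reads outside genes (16.8% to 18.2%), ambiguous (1.18% to 1.25%) and multiply aligned reads (12.8% to 14.6%) stayed out of library sizes and tests.

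Counts were tested with edgeR 4.0.16 in R 4.3.3 (quasi-likelihood F-test, TMM factors 0.968 to 1.04, filterByExpr with a minimum count of 10, a mean per genotype over all 15 libraries, Benjamini-Hochberg over 15843 genes, threshold 0.05). Biological variation had a common coefficient of 0.102, and a prior count of 2 entered log2 CPM. Exon lengths and positions came from GENCODE M21, where 23376 of 24421 symbols were found. Each of 30 pairs of libraries within a genotype differed by more than counting noise (chi-square over degrees of freedom, 5.63 to 40.7). Amplified reads carry no molecular identifiers, so p-values and intervals rest on the spread between libraries.

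The 8 genes and all gene lists, and the libraries with high brainstem markers, were chosen with earlier results of these data known. Named genes were the 8, called genes of their families, targets and coregulators, the 2 genes with the smallest adjusted p in lists of other neurons' factors, and the 5 (Rora) or 3 most alike genes among those whose mean log2 CPM was 3 or more. Genes of these lists that did not pass, such as Nr1d1, Kat5, Ldb1 and Skor1, and the brainstem gene Slc18a3 were named after their values were seen. Some genes that these rules cover are not reported here. Alternatives were DESeq2 1.42.0, RLE factors, a fit with no filter, a fit of the compared genotypes alone, a replicate block, leaving out each library, Ttr or brainstem markers as covariates, libraries with Ttr under 100 CPM, and leaving out ATXN1[82Q] replicates 2 and 5. Libraries with Ttr over 100 CPM were an alternative chosen after seeing the data. The pipeline was tested on simulated data. Figures used Python 3.11.15 and matplotlib 3.10.9.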

Additional observations from a re-analysis of the deposited data

How the results depend on the processing

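The 6 falls in ATXN1[82Q] against wild type passed in all 25 alternatives. Of 600 recomputed log2 fold changes over the 8 genes and 3 comparisons, 568 kept their direction and side of the threshold, 20 lost a call, 2 gained one and 10 changed sign, none of which was called. The 192 recomputed levels relative to effector genes moved by less than the spread between libraries. Of the 12 values for each level, 10 came from leaving out each library in turn, which cannot move a group mean by that much. Those values therefore do not test the levels.

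Against wild type, the 2 falls with the substituted transgene became 1 with Ttr under 100 CPM, with the brainstem covariate or with only the 2 genotypes in the fit, and 0 with Ttr over 100 CPM. They ranged from 0 to 2 when 1 library was left out. The 6 genes higher than in ATXN1[82Q] became 3 with Ttr under 100 CPM, where the fit has 2 libraries of each transgene, and were 6 to 7 when 1 library was left out. Foxp2 was the seventh, without ATXN1[82Q] replicate 1 (adjusted p = 0.0336, log2 0.23).

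Over all genes, ATXN1[82Q] against wild type gave 4993 calls, 3234 with Ttr under and 1624 with Ttr over 100 CPM, and 3909 to 5377 when 1 library was left out. The substituted transgene gave 223, 430 by DESeq2, 0 with Ttr over 100 CPM and 136 to 307 when 1 library was left out, the lowest without its replicate 2. The transgenes against each other gave 4454, 1512 with Ttr under, 2751 with Ttr over 100 CPM and 3502 to 4648 when 1 library was left out. Smaller fits have fewer libraries.

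Signs changed for uncalled values near 0. Foxp1 in ATXN1[82Q] was -0.0053 (without ATXN1[82Q] replicate 1) to 0.071 when 1 library was left out, and Foxp2 there was -0.021 with Ttr over 100 CPM. Skor2 with the substituted transgene against wild type was 0.021 with the Ttr covariate, 0.034 with the brainstem covariate, 0.18 with Ttr over 100 CPM and -0.070 to 0.049 when 1 library was left out. Over the 10 alternatives other than leaving out 1 library, that Skor2 difference ran from -0.21 to 0.18, and none was called. Foxp1 between the transgenes was -0.018 with Ttr under 100 CPM. The cause of these changes was not tested.

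Libraries that share a replicate number were not paired by it, since 4 of 15 such pairs had a correlation over 0.1 (median -0.109). With the replicate number as a block the calls over all genes were 4681, 174 and 4152, and those of the 8 genes stayed at 6, 2 and 6.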
